A study of Mus musculus with 17 samples.

Results

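The Nduf genes encode the nuclear-encoded subunits and several assembly factors of respiratory complex I, and their transcripts were followed in 17 mouse heart libraries. Rows of the deposited table whose symbol starts with Nduf numbered 53. Of these, 3 rows named as pseudogenes were left out, and Ndufa11b did not reach a mean of 0.5 FPKM in any group, with a highest value of 0.157 FPKM. This left 49 of the 28640 genes in the table. By their known roles they were 3 core subunits of the NADH-oxidising arm (core N), 4 core subunits of the ubiquinone-reducing arm (core Q), 32 accessory subunits, 8 assembly factors and a pair made of Ndufa4 and Ndufa4l2. Ndufb1 is a member by the table's symbol although GENCODE M21 names its gene Ndufb1-ps, and Ndufb4c and Ndufs6b, counted here with the accessory subunits by symbol, are processed pseudogenes in that annotation.

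Complex I oxidises NADH at the tip of an arm that stands in the mitochondrial matrix, passes the electrons along a chain of iron-sulfur clusters to ubiquinone, and pumps protons through its membrane arm. The core subunits carry out this chemistry, the accessory subunits surround and stabilise them, and assembly factors help to build the complex without staying in it. The core of the membrane arm is encoded in mitochondrial DNA by the mt-Nd genes. Heart muscle, which beats without rest on oxidative metabolism, is rich in this complex.

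Of the heart libraries, 6 were labelled tumour_swim (tumour-bearing mice given swimming exercise), 6 tumour (mice carrying a transplanted CT-26 tumour) and 5 control (no tumour). CT-26 cells come from a colon carcinoma of the mouse and were grown here as a graft. No tumour-free mice swam, so swimming was compared only in tumour-bearing mice. The sources used here do not give strain, sex, age, the site of the graft or the length of the swimming. They do not say that each library is a separate animal either, so p-values measure only the spread between these libraries. FPKM (fragments or reads per kilobase of exon and per unit of sequencing depth) is the unit throughout. Depth lay between 13.3 and 19.7 M reads per library, and the lowest number of reads behind any value of a member was 27, in Ndufs6b.

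Control 1, control 4 and tumour_swim 1 stand apart from the other 14 libraries, in that short transcripts were raised there, and the comparisons between groups are therefore given with and without them. A gene's deviation from the 14-library mean had a Spearman correlation with its exon length, across all genes tested, of -0.55 in tumour_swim 1, -0.56 in control 1 and -0.58 in control 4. It was also negative, at -0.43, in control 5, and lay between -0.21 and 0.30 in the other libraries. The Nduf transcripts are short: the median exon length was 1501 bases in the 49 members, against 3946 bases in all genes tested. The share of reads from the mitochondrial genome was 46.3% in tumour_swim 1 and between 16.9% and 30.8% elsewhere.

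Levels are given by the members' roles; the ranges of the classes overlapped, and no class difference was tested. FPKM here is per length of a gene's annotated exons, which can exceed that of its main transcript (the shortest marked as principal). Levels of different genes therefore compare only roughly. In Ndufs1 the exons cover 8086 bases and the main transcript has 2590. Averaged over all 17 libraries, core N subunits had mean levels of 74.3 FPKM (Ndufs1, which carries several iron-sulfur clusters) to 254 FPKM (Ndufv2, an iron-sulfur subunit at the tip). Of the core Q subunits, Ndufs3, which joins the arm's parts, had a mean level of 144 FPKM, Ndufs8 one of 169 FPKM and Ndufs7 one of 223 FPKM. The 32 accessory subunits had a median of 148 FPKM and ran up to 390 FPKM in Ndufa2. Their lowest mean level was 3.87 FPKM in Ndufb2, whose annotated exons cover 5628 bases although its main transcript has 455. The 8 assembly factors ran from 4.60 FPKM (Ndufaf2) to 30.3 FPKM (Ndufaf8), with a median of 14.8 FPKM. Ndufa4, now counted as a subunit of cytochrome c oxidase, had the highest mean level of all 49, at 498 FPKM, and its relative Ndufa4l2, a gene known to respond to low oxygen, had 21.7 FPKM.

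Summed over the 49 members, Nduf transcripts made up 2.59 ± 0.708% of the FPKM of nuclear genes in tumour_swim hearts (SD, n = 6), 2.29 ± 0.216% in tumour hearts (n = 6) and 3.44 ± 1.30% in control hearts (n = 5). The wide spread in the control group came from single libraries. Control 1 had 4.33%, control 4 had 5.23% and control 5 had 3.05%, whereas control 2 (2.24%) and control 3 (2.34%) lay inside the tumour range of 2.05% to 2.62%. In tumour_swim hearts, replicate 1 had 4.02% and the other 5 had 2.16% to 2.48%. Without control 1, control 4 and tumour_swim 1, the share was 2.31 ± 0.129% in tumour_swim (n = 5), 2.29 ± 0.216% in tumour (n = 6) and 2.54 ± 0.442% in control (n = 3), and the ranges of the groups overlapped.

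**Figure D1:**
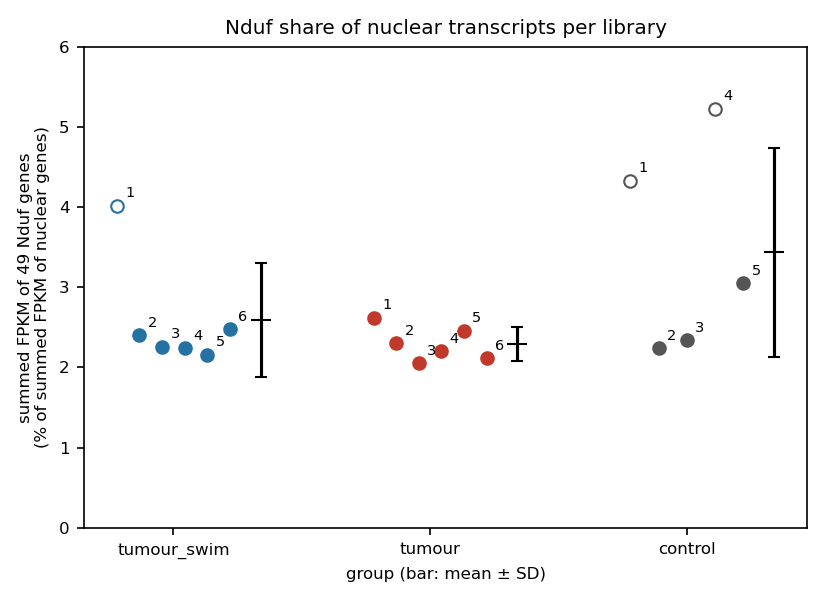
Summed FPKM of the 49 Nduf genes as a percentage of the summed FPKM of all nuclear genes (vertical axis) in each library of the 3 groups; points are libraries with their replicate number, open points are control 1, control 4 and tumour_swim 1, and bars are mean ± SD. Control 1, control 4 and tumour_swim 1 lie at 4.33%, 5.23% and 4.02%, control 5 lies at 3.05%, and the remaining 13 libraries lie between 2.05% and 2.62%.

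The same libraries were high gene by gene. The highest of the 17 libraries was control 4 for 42 members, and it was control 1, control 4, control 5 or tumour_swim 1 for all 49. Control 1 lay above every tumour library in 47 members, control 4 in 48 and control 5 in 46. Control 2 lay above every tumour library in 3 members, within their range in 40 and below all of them in 6. Control 3 lay above every tumour library in 4 members, within their range in 42 and below all of them in 3. Control hearts were thus uneven for these genes: across libraries of a group, the coefficient of variation had a median of 31.9% in tumour_swim, 14.6% in tumour and 49.1% in control hearts, and in 48 of 49 members it was greater in control than in tumour hearts.

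**Figure D2:**
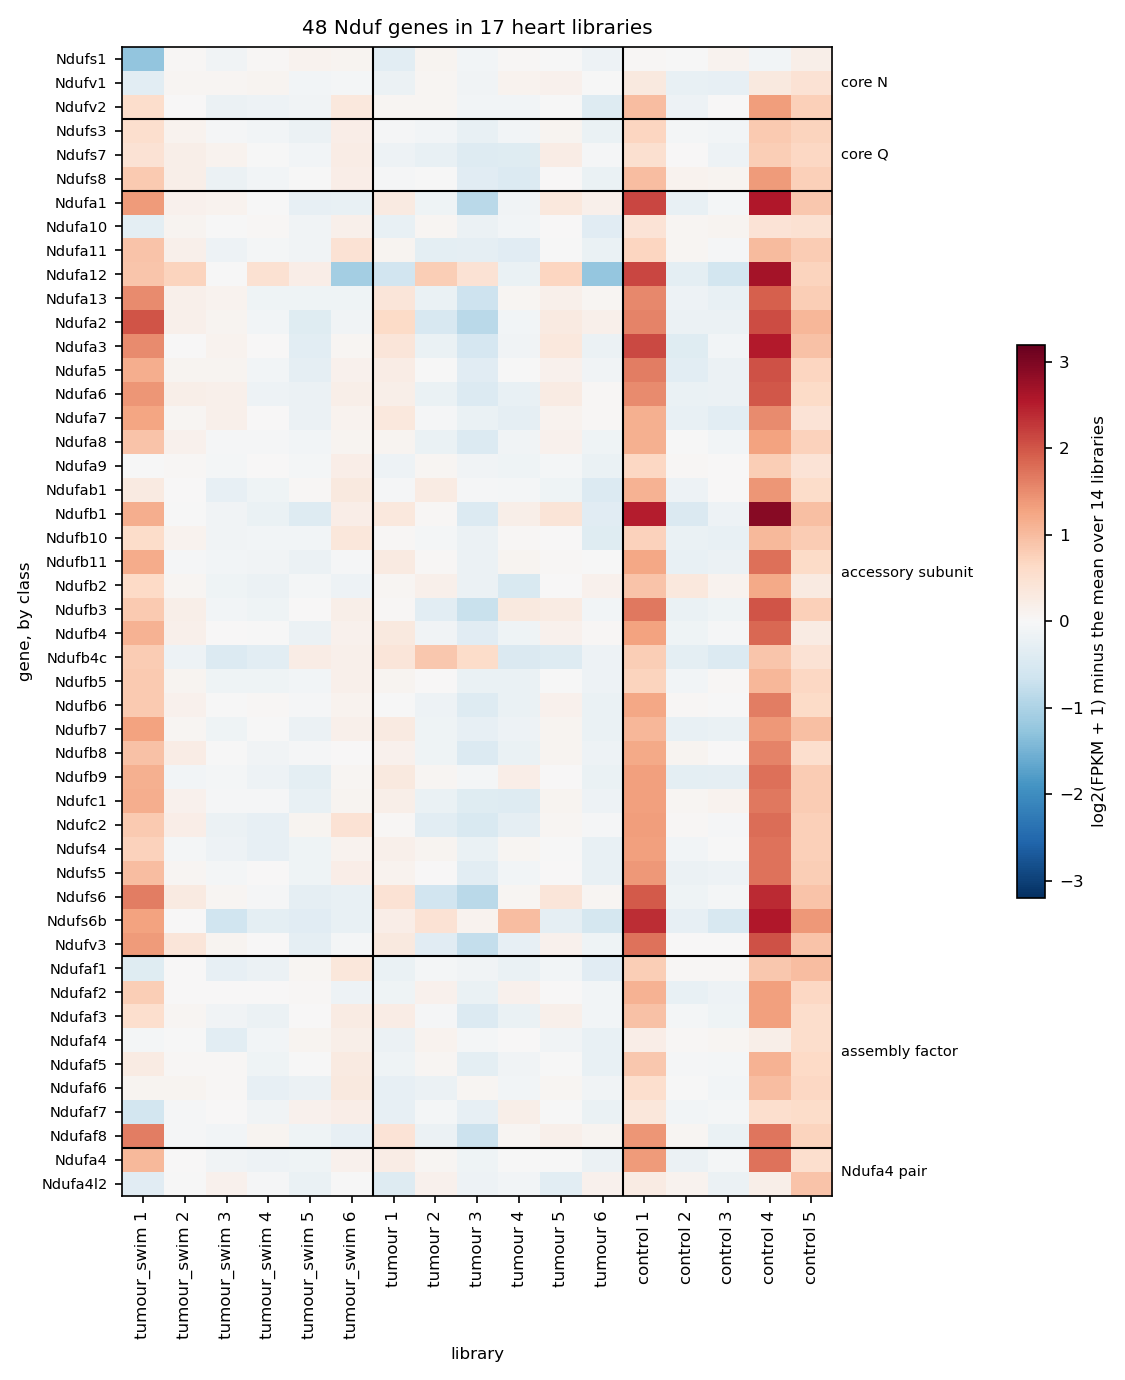
Difference of log2(FPKM + 1) from the mean over the 14 libraries other than control 1, control 4 and tumour_swim 1 (colour, red higher and blue lower) for 48 of the 49 Nduf genes (rows, by class) in the 17 libraries (columns, by group). The median over all 49 was 0.85 in tumour_swim 1, 1.13 in control 1, 1.42 in control 4 and 0.72 in control 5, and between -0.26 and 0.14 in the other 13 libraries.

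The size of this shift differed between members and went with transcript length. The ratio of control 1 to the mean of control 2, control 3 and control 5 had a median of 1.92 over the members. It ranged from 0.922 in Ndufa4l2 to 4.85 in Ndufb1, an accessory subunit of the membrane arm. The ratio of control 4 to that same mean, without control 1, had a median of 2.50, and ranged from 0.868 in Ndufs1 to 6.40 in Ndufb1. For control 4 the median ratio was 2.87 in accessory subunits, 1.84 in assembly factors, 1.5 in core Q and 1.22 in core N subunits. The ratio of tumour_swim 1 to the other tumour_swim libraries had a median of 1.82 and was above 1 in 40 members; it ran from 0.402 in Ndufs1, whose main transcript has 2590 bases, to 4.18 in Ndufa2, with 572 bases. Control 5 exceeded the mean of control 2 and control 3 in all 49 members, by a median ratio of 1.75, from 1.07 in Ndufb2 to 3.78 in Ndufs6b. Across members, which are not independent replicates, the Spearman correlation of these ratios with the length of the main transcript was -0.66 for tumour_swim 1, -0.53 for control 1, -0.53 for control 4 and -0.38 for control 5. Ndufb1, Ndufa2 and Ndufb2 are named here as extremes, chosen after their values were seen.

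**Figure D3:**
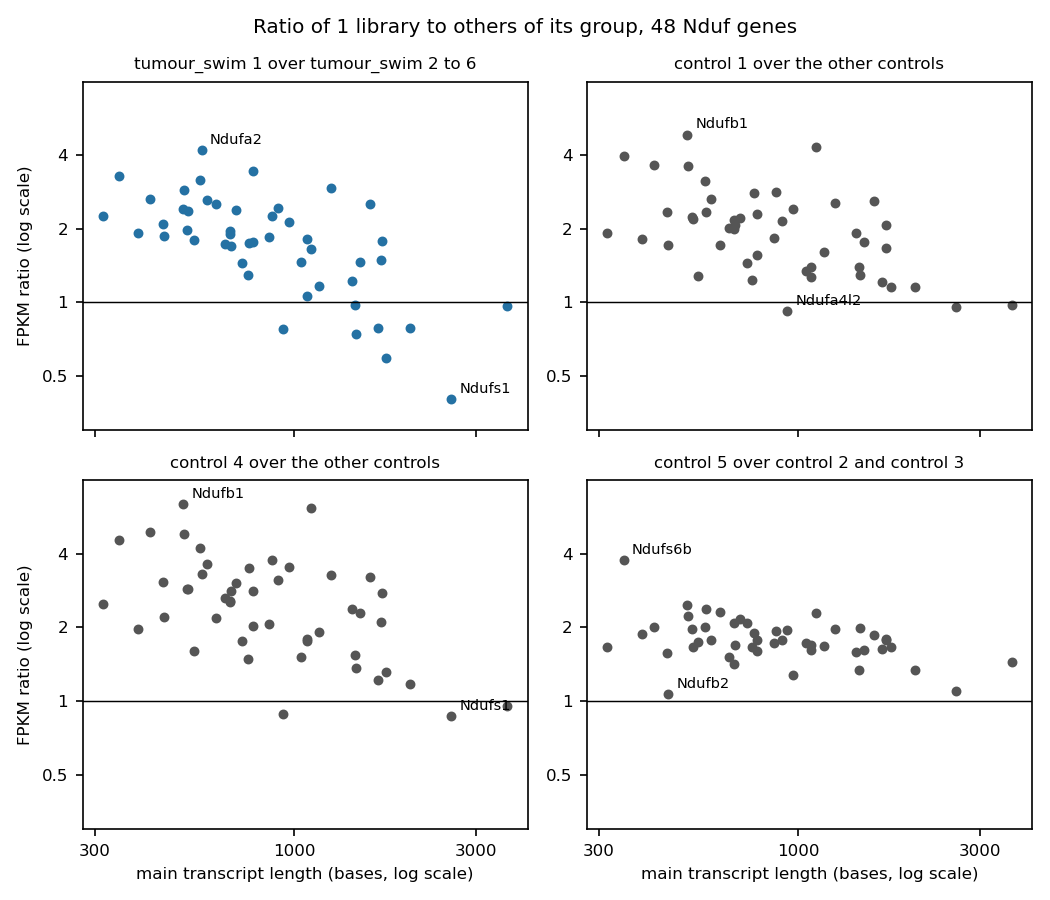
Ratio of FPKM in a single library to the mean of other libraries of its group (vertical axis, log scale) against the length of the main transcript in bases (horizontal axis, log scale), with a point for each of 48 Nduf genes; the line marks a ratio of 1, and the highest and lowest genes are named. In tumour_swim 1 the ratio runs from 4.18 in Ndufa2 to 0.402 in Ndufs1, while in control 5 every gene lies above 1.

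Tumour against control asks how the heart's complex I transcripts stand when a tumour grows elsewhere in the body. With all 17 libraries, 6 of 49 members were lower in tumour than in control hearts and none was higher (limma, adjusted p under 0.05 over all 13709 genes tested; 39 members had an unadjusted p under 0.05). Of all genes tested, 3.33% were called lower, and 3779 of the 13709 had an unadjusted p under 0.05 in either direction. The 6 were the core Q subunit Ndufs8, the accessory subunits Ndufa9, Ndufc1 and Ndufc2, and the assembly factors Ndufaf1 and Ndufaf5. All 49 log2 differences were negative, from -1.12 to -0.12, with a median of -0.67, where the median of all genes tested was 0.14. The 6 genes lie on GRCm38 (GENCODE M21) at chr19:3908863-3912774 (Ndufs8, - strand), chr6:126821721-126849136 (Ndufa9, - strand), chr3:51404677-51408988 (Ndufc1, - strand), chr7:97400003-97407802 (Ndufc2, + strand), chr2:119655446-119662827 (Ndufaf1, - strand) and chr2:140170649-140203689 (Ndufaf5, + strand). In whole hearts, fewer cells of a type and less RNA per cell cannot be told apart.

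Without control 1, control 4 and tumour_swim 1, limma called no Nduf gene in this comparison, while 5.41% of all genes tested were called lower. The smallest adjusted p of a member was then 0.0565, in Ndufs8, and 12 members had an unadjusted p under 0.05. Of all 13709 genes tested, 3857 had one. The log2 differences were negative in 45 of 49 members and ran from -0.53 to 0.23, with a median of -0.24 beside 0.03 over all genes tested. That median in turn rested on control 5: with control 5 left out as well it was 0.01, and with any other of the 14 libraries left out it lay between -0.38 and -0.20. At most 1 member, Ndufs8, passed the threshold in these fits, and only without tumour 5.

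**Figure D4:**
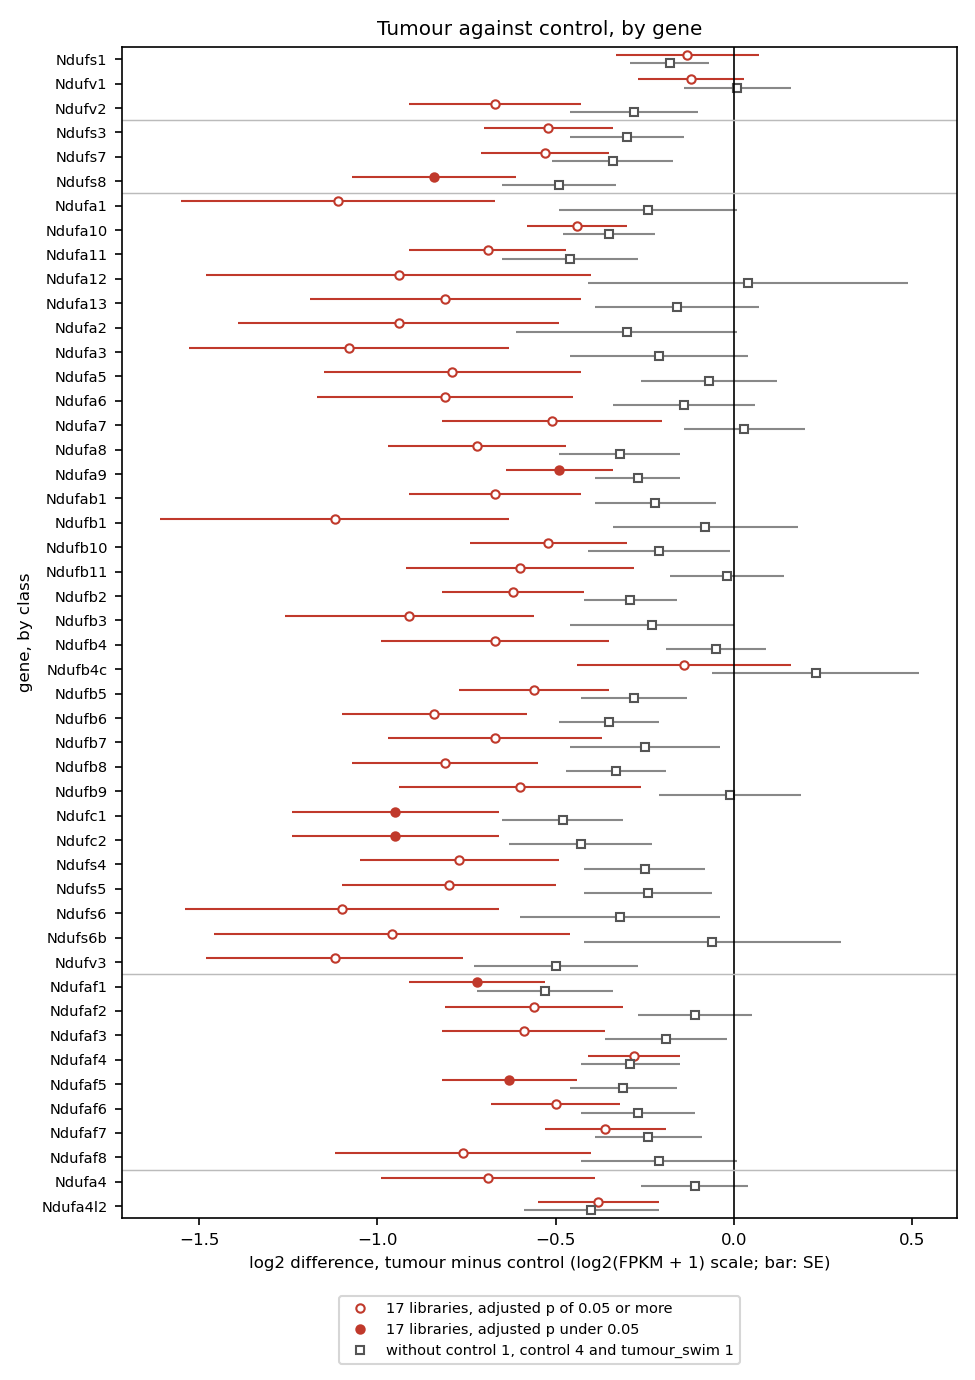
Difference of tumour minus control in log2(FPKM + 1) for 48 of the 49 Nduf genes (rows, by class), with bars for the SE; circles use all 17 libraries, filled where the limma adjusted p is under 0.05, and squares leave out control 1, control 4 and tumour_swim 1. All 48 circles lie below 0, 6 of them filled, and no square is past the threshold; the medians over all 49 are -0.67 and -0.24.

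The count of 6 lower members changed with every single library left out. It was 0 without control 1, control 4, control 5, tumour 4 or tumour 6, and 1, Ndufaf1, without tumour 3. It was 2, Ndufs8 and Ndufaf1, without any of tumour 1, tumour 2, tumour 5 and tumour_swim 2 to 6. In these 14 fits, 1.52% to 2.94% of all genes tested were called lower. The count was 24 without control 2 (4.83% of all genes), 22 without control 3 (4.91%) and 22 without tumour_swim 1 (7.51%), a library outside the comparison that shares in the estimate of the spread. Of the 6 members called with all libraries, 0 kept the call in every one of these fits. Removing each library's trend with exon length before the fit gave 13 lower members with a median of -0.61, where 8.53% of all genes tested were called lower. With that trend removed and the 3 libraries left out, 5 were lower (Ndufs8, Ndufaf1, Ndufc1, Ndufa10 and Ndufb6), with a median of -0.25 over the members, where 9.02% of all genes tested were called lower.

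Ndufs8, a core Q subunit that holds iron-sulfur clusters on the way to ubiquinone, had 103, 128 and 140 FPKM (lowest, median and highest) in tumour hearts. In control hearts it had 278, 149, 147, 361 and 238 FPKM in replicates 1 to 5. Every tumour library lay below every control library, but control 2 and control 3 exceeded the highest tumour value by little. Its log2 difference was -0.84 ± 0.23 (SE, limma adjusted p = 0.0322), and -0.49 ± 0.16 (adjusted p = 0.0565) without the 3 libraries. With the length trend removed as well it was -0.46 ± 0.12 (adjusted p = 0.0168).

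Ndufaf1, an assembly factor that helps to build the membrane arm, had 16.3, 18.8 and 20.3 FPKM (lowest, median and highest) in tumour hearts. In control hearts it had 37.2, 21.9, 21.6, 39.5 and 43.3 FPKM in replicates 1 to 5, again with no overlap, and here the highest library was control 5. The log2 difference was -0.72 ± 0.19 (SE, limma adjusted p = 0.0260), and -0.53 ± 0.19 (adjusted p = 0.0742) without the 3 libraries. With the length trend removed as well it was -0.50 ± 0.15 (adjusted p = 0.0305). Ndufs8 and Ndufaf1 were the 2 members, of 49, with every tumour library below every control library, both in the 17 libraries, where 2.82% of all genes tested behaved so, and in the 14, where 6.19% did.

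Ndufc1, a small accessory subunit of the membrane arm with the shortest main transcript of the family (315 bases), had 72.9, 85.1 and 111 FPKM (lowest, median and highest) in tumour hearts. In control hearts it had 243, 101, 106, 316 and 172 FPKM in replicates 1 to 5. Control 2 and control 3 overlapped the upper end of the tumour range. The log2 difference was -0.95 ± 0.29 (SE, limma adjusted p = 0.0478), and -0.48 ± 0.17 (adjusted p = 0.0814) without the 3 libraries.

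Ndufc2, its partner in the membrane arm, averaged 113 ± 17.6 FPKM in tumour hearts (SD, n = 6) and 245 ± 134 FPKM in control hearts (n = 5), with a log2 difference of -0.95 ± 0.29 (SE, limma adjusted p = 0.0497; 0.171 without the 3 libraries). Ndufa9, an accessory subunit near the ubiquinone site that binds a nucleotide cofactor, averaged 158 ± 10.7 FPKM in tumour and 229 ± 56.1 FPKM in control hearts. Its log2 difference was -0.49 ± 0.15 (adjusted p = 0.0451; 0.145 without the 3 libraries). Ndufaf5, an enzyme that hydroxylates the core subunit Ndufs7 during assembly, averaged 8.43 ± 0.951 FPKM in tumour and 14.3 ± 5.35 FPKM in control hearts, a log2 difference of -0.63 ± 0.19 (adjusted p = 0.0475; 0.183 without the 3 libraries). In each of these 3 genes control 2 and control 3 had values within the tumour range, at 130 and 122 FPKM for Ndufc2, 174 and 171 FPKM for Ndufa9, and 9.04 and 8.79 FPKM for Ndufaf5.

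No other core subunit passed the threshold. Ndufv1, which binds NADH and the flavin that takes its electrons, had 194, 223 and 241 FPKM (lowest, median and highest) in tumour hearts and 273, 187, 183, 275 and 303 FPKM in control replicates 1 to 5. Control 2 and control 3 lay below every tumour library for this gene, and the log2 difference was -0.12 ± 0.15 (SE, limma adjusted p = 0.593) with all libraries and 0.01 ± 0.15 (adjusted p = 0.980) without the 3. Ndufs1, with the longest main transcript of the core subunits, had 60.6, 74.5 and 81.1 FPKM in tumour hearts and 78.9, 76.4, 83.3, 71.8 and 88.2 FPKM in control replicates 1 to 5. Control 1 and control 4 were not raised for Ndufs1, and the groups overlapped (log2 difference -0.13 ± 0.20, adjusted p = 0.681; -0.18 ± 0.11, adjusted p = 0.284, without the 3 libraries). Ndufv2, Ndufs3 and Ndufs7 had log2 differences of -0.67, -0.52 and -0.53 with all libraries, with adjusted p of 0.083, 0.083 and 0.0755. Without the 3 libraries the differences were -0.28, -0.30 and -0.34.

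Of the 32 accessory subunits, 3 were lower with all libraries and 0 without the 3, where 3.33% and 5.41% of all genes tested were. Ndufs4, whose loss causes Leigh syndrome in humans and which holds the NADH-oxidising arm in place, had 42.8, 51.8 and 57.5 FPKM (lowest, median and highest) in tumour hearts, and 128, 47.7, 50.1, 171 and 87.6 FPKM in control replicates 1 to 5. Control 2 and control 3 lay inside the tumour range (log2 difference -0.77 ± 0.28, SE, limma adjusted p = 0.0912; -0.25 ± 0.17, adjusted p = 0.357, without the 3 libraries). Ndufs6, an accessory subunit that binds zinc, averaged 129 ± 43.6 FPKM in tumour and 336 ± 251 FPKM in control hearts, where control 1 and control 4 had 508 and 686 FPKM (log2 difference -1.10 ± 0.44, adjusted p = 0.126; -0.32 ± 0.28, adjusted p = 0.498, without the 3 libraries). Ndufv3, an accessory subunit at the tip of the arm, had the most negative log2 difference of the named members, at -1.12 ± 0.36 (adjusted p = 0.0608). Without the 3 libraries it was -0.50 ± 0.23 (adjusted p = 0.176), with 32.9 ± 8.81 FPKM in tumour (SD, n = 6) and 47.5 ± 18.6 FPKM in control hearts (n = 3). Ndufb4c was the highest member without the 3 libraries, at 0.23 ± 0.29 (SE, adjusted p = 0.633).

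Of the 8 assembly factors, 2 were lower with all libraries and 0 without the 3, beside the same 3.33% and 5.41% of all genes. All 8 log2 differences were negative in both fits, with medians of -0.57 and -0.25. Ndufa4 averaged 382 ± 40.0 FPKM in tumour and 707 ± 415 FPKM in control hearts. Control replicates 1 to 5 had 984, 337, 368, 1288 and 559 FPKM (log2 difference -0.69 ± 0.30, SE, limma adjusted p = 0.151; -0.11 ± 0.15, adjusted p = 0.668, without the 3 libraries). Control 1 and control 4, the highest libraries for Ndufa4, were not the highest for Ndufa4l2. Ndufa4l2 had 15.6, 19.3 and 23.4 FPKM in tumour hearts and 25.3, 23.1, 18.4, 24.2 and 40.7 FPKM in control replicates 1 to 5, and control 5 alone stood clear of the rest (log2 difference -0.38 ± 0.17, adjusted p = 0.168; -0.40 ± 0.19, adjusted p = 0.178, without the 3 libraries).

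**Figure D5:**
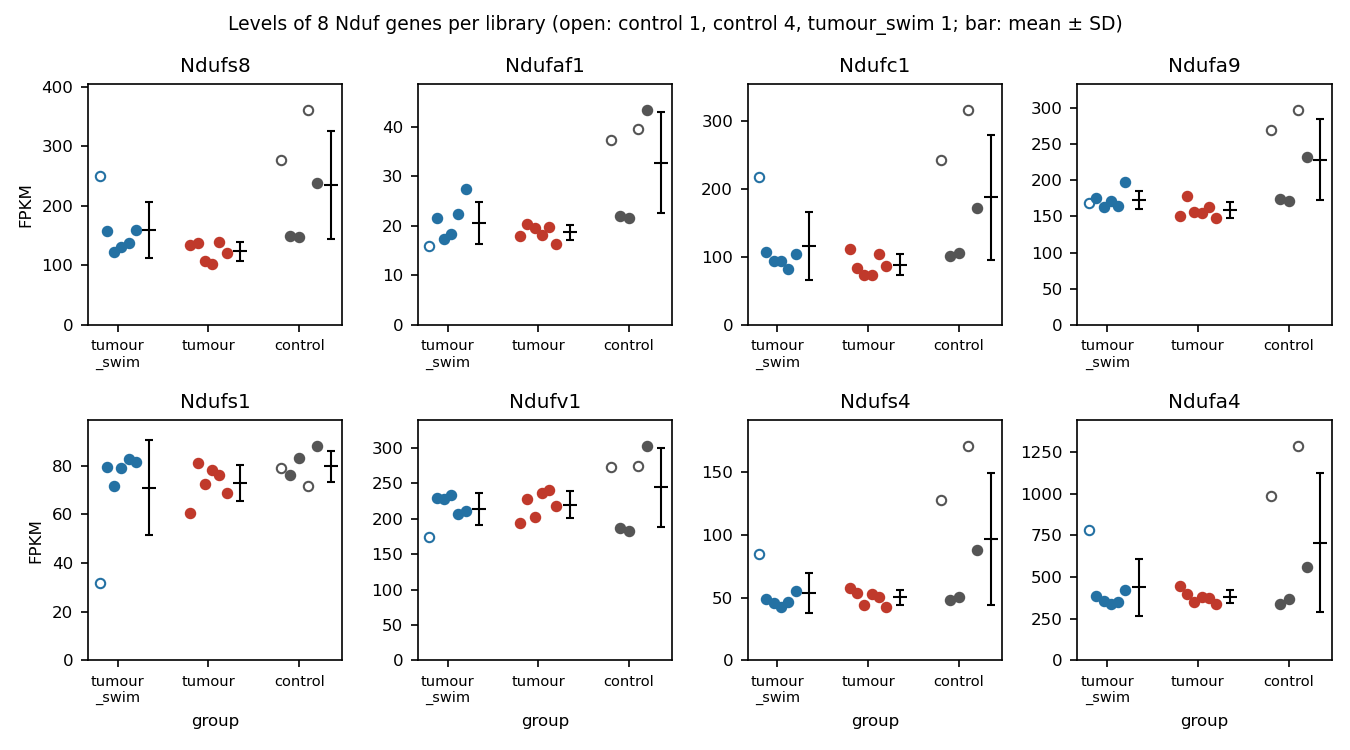
FPKM (vertical axis, from 0, a scale for each gene) of 8 Nduf genes in each library of the tumour_swim, tumour and control groups; open points are control 1, control 4 and tumour_swim 1, and bars are mean ± SD. For Ndufs8 and Ndufaf1 every tumour library lies below every control library (103 to 140 against 147 to 361 FPKM, and 16.3 to 20.3 against 21.6 to 43.3 FPKM); for Ndufs1 tumour_swim 1 lies at 31.7 FPKM, below all others.

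Tumour_swim against tumour asks whether swimming altered these transcripts in tumour-bearing mice. No Nduf gene was called by limma, in either direction, with all 17 libraries, and the smallest adjusted p of a member was 0.957. No gene of the whole table was called either (0.0%), and no member had an unadjusted p under 0.05, where 554 of all 13709 genes tested did. The median log2 difference was 0.21 over the members, with 4 of 49 negative, beside -0.08 over all genes tested. Without control 1, control 4 and tumour_swim 1 again no member was called (smallest adjusted p = 0.592, and 0 members with an unadjusted p under 0.05), and 0.00729% of all genes, which is 1 gene, was. Of all genes tested, 1334 then had an unadjusted p under 0.05. The median was 0.07 in the members and 0.04 in all genes tested.

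With tumour_swim 1 alone left out, the median of the members was also 0.07. Ndufs8 had 251 FPKM in tumour_swim 1 and 158, 122, 131, 137 and 160 FPKM in tumour_swim 2 to 6, against 103 to 140 FPKM in tumour hearts. The groups overlapped, and its log2 difference was 0.33 ± 0.22 (SE, limma adjusted p = 0.957) with all libraries and 0.20 ± 0.14 (adjusted p = 0.655) without the 3. Ndufs7, the core Q subunit next to the ubiquinone site, had the highest difference of the members without the 3 libraries, at 0.26 ± 0.15 (adjusted p = 0.592). It averaged 216 ± 20.2 FPKM in tumour_swim (SD, n = 5) and 182 ± 32.0 FPKM in tumour hearts (n = 6). Ndufs1 went the other way in tumour_swim 1, with 31.7 FPKM beside 71.6 to 82.7 FPKM in tumour_swim 2 to 6 and 60.6 to 81.1 FPKM in tumour hearts. Ndufs6b had the lowest log2 difference of the members in both fits, at -0.20 ± 0.48 (SE, limma adjusted p = 0.959) and -0.46 ± 0.31 (adjusted p = 0.637). A p-value that misses the threshold does not show that the groups were alike.

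Tumour_swim against control shares its control hearts with the tumour comparison. No Nduf gene was called by limma with all libraries (smallest adjusted p = 0.154, 13 members with an unadjusted p under 0.05), where 0.35% of all genes tested were called lower. Of all 13709 genes tested, 1694 had an unadjusted p under 0.05. All 49 log2 differences were negative, with a median of -0.51 beside 0.06 over all genes tested. Without the 3 libraries no member was called (smallest limma adjusted p = 0.191), and 0.649% of all genes were called lower. An unadjusted p under 0.05 was found for 1 member and for 2496 of all genes tested. The median was then -0.18 beside 0.07. With tumour_swim 1 alone left out, 4 members were lower (Ndufs8, Ndufs4, Ndufc1 and Ndufb2), where 2.67% of all genes tested were. Ndufaf1 averaged 20.5 ± 4.20 FPKM in tumour_swim (SD, n = 6) and 32.7 ± 10.2 FPKM in control hearts (n = 5), with a log2 difference of -0.61 ± 0.19 (SE, adjusted p = 0.154; -0.36 ± 0.19, adjusted p = 0.341, without the 3 libraries). Ndufs6b had the most negative difference with all libraries, at -1.16, and averaged 8.97 ± 6.14 FPKM in tumour_swim and 27.1 ± 22.2 FPKM in control hearts, where control 1 and control 4 had 46.7 and 53.5 FPKM. Leaving out the 3 libraries gave -0.52 ± 0.37 (adjusted p = 0.482), with 6.5 ± 1.2 FPKM in tumour_swim (SD, n = 5) and 11.8 ± 9.84 FPKM in control hearts (n = 3).

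The mitochondrially encoded core subunits are transcribed from the mitochondrial genome and not from nuclear promoters. Of 7 mt-Nd genes, mt-Nd4l was higher in tumour than in control hearts, at 1281 ± 658 FPKM (SD, n = 6) against 535 ± 259 FPKM (n = 5), a log2 difference of 1.27 (limma adjusted p = 0.0475), and none was lower. Its log2 difference was 1.29 without the 3 libraries (adjusted p = 0.0856), and no mt-Nd gene was called. There 1 of the 7 had an unadjusted p under 0.05, beside 3857 of all 13709 genes tested. The log2 difference of mt-Nd3 was -0.71 with all libraries (adjusted p = 0.326) and 0.10 without the 3 (adjusted p = 0.859). The median log2 difference of the 7 was 0.35 with all libraries and 0.27 without the 3. The mean log2 level of the mt-Nd genes was 12.90 in tumour_swim 1, the highest of all libraries, and 12.09 to 12.70 in tumour libraries. Control 4 and control 1, with the highest Nduf levels, lay inside that range at 12.27 and 12.19. Control 5 had the lowest value of all libraries, 11.41.

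Other nuclear genes of the pathway were counted by lists. In tumour against control, 3.33% of all genes tested were called lower with all libraries and 5.41% without the 3. An unadjusted p under 0.05 was found for 3779 and 3857 of all 13709 genes tested. Of 14 further complex I assembly factors, Timmdc1 and Tmem70 were lower in tumour than in control hearts with all libraries (log2 differences of -0.59 and -0.56, limma adjusted p = 0.0265 and 0.0192). Without the 3 libraries Timmdc1 had -0.38 (adjusted p = 0.0766), and Tmem70 (-0.38, adjusted p = 0.0419), Dmac2 (-0.48, adjusted p = 0.0153) and Tmem186 (-0.43, adjusted p = 0.033) were lower. Timmdc1 and Tmem186 act on the membrane arm, and Tmem70 also serves the ATP synthase. Of 47 nuclear-encoded subunits of complexes II to V, 7 were lower and none higher with all libraries, with a median of -0.61. Without the 3 libraries 2 were lower, near the share of all genes, and the median of the 47 was -0.13. Their median per library tracked that of the Nduf genes, at 1.00 in tumour_swim 1, 1.16 in control 1, 1.40 in control 4 and 0.59 in control 5 on the log2 scale. None of 11 regulators of nuclear respiratory genes was called in this comparison (smallest adjusted p = 0.0965 with all libraries, 3 with an unadjusted p under 0.05; 0.0742 without the 3 libraries, 1 with an unadjusted p under 0.05). The nuclear receptor gene Esrra had a log2 difference of -0.41 and the coactivator gene Ppargc1a one of 0.82 with all libraries, and -0.28 and 0.35 without the 3. In tumour_swim against tumour, limma called no gene of these 4 lists, with or without the 3 libraries. With all libraries 3 of their genes had an unadjusted p under 0.05, beside 554 of all 13709 genes tested. Without the 3 libraries 11 did, beside 1334 of all genes tested.

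Marker genes of the cells that a heart sample can hold were read beside these results. The 8 cardiomyocyte markers summed to 7666 to 9006 FPKM in tumour_swim, 8036 to 9890 FPKM in tumour and 7980 to 11247 FPKM in control hearts, and none was called in tumour against control (smallest adjusted p = 0.056). In that comparison 4 of 6 fibroblast markers, 3 of 5 macrophage markers and 3 of 5 red cell markers were higher with all libraries, and no tested endothelial, smooth muscle, brown fat or liver marker was called. The smooth muscle marker Tagln and the brown fat markers Adipoq and Plin1 did not reach 0.5 FPKM and were not tested. Brown fat thus rested on Cidea alone. Without the 3 libraries 4 of 6 fibroblast, 3 of 5 macrophage and 4 of 5 red cell markers were higher, and the endothelial marker Kdr was lower (-0.70, limma adjusted p = 0.0369). Of the 13709 genes tested, 704 were called higher with all libraries and 981 without the 3. The macrophage markers summed to 39.0 to 91.9 FPKM in tumour and 19.7 to 34 FPKM in control hearts, and the fibroblast markers to 314 to 641 FPKM and 220 to 291 FPKM. Of the skeletal muscle list, Ckm and Acta1, which heart muscle also expresses, were lower with and without the 3 libraries. They made up nearly the whole of the list's sum of 473 to 1219 FPKM in tumour and 2333 to 3729 FPKM in control hearts. Its defining markers Myh1 and Myh2 were at no more than 0.0163 and 0.0213 FPKM in any library, and at 0 in all control hearts. Endothelial markers summed to 22.7 FPKM in tumour_swim 1 and 39.9 FPKM in control 4, the lowest values of their groups. The same 2 libraries were also lowest for fibroblast (171 and 220 FPKM), macrophage (12.5 and 19.7 FPKM) and smooth muscle and pericyte markers (24.8 and 120 FPKM). For red cell markers they were the highest of their groups (7290 and 2265 FPKM). The summed lung markers reached no more than 1.77 FPKM and the summed liver markers no more than 9.60 FPKM. Of the markers found in the deposited table, none was at 0 in all libraries. Ucp1 of the brown fat list and Myh4 of the skeletal muscle list had no row under these symbols. The part of these cells in the Nduf differences was not tested.

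The members moved together over libraries. The Pearson correlation of a member with the mean of the other members had a median of 0.95 over all 17 libraries and 0.82 over the 14, and was 0.9 or more in 34 and 10 members. These are descriptions over libraries that differ in depth and in the length trend. Ndufs5, a small accessory subunit, followed the family most closely, at 1.00 over 17 and 0.98 over 14 libraries. Ndufs1 followed it least over 17 libraries, at -0.25, and had 0.36 over the 14. Ndufa12, an accessory subunit between the arm's parts, and Ndufb4c had 0.22 and 0.19 over the 14. Ndufa12 ranged from 16.3 to 67.5 FPKM among tumour_swim and from 14.6 to 63.0 FPKM among tumour libraries.

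Reads of some members could be shared with other genes. A stretch of at least 30% of the main transcript matched a transcript of another gene at 95% identity or more in 10 members. For Ndufa12 the copy is the row named Ndufa12-ps (99.5% identity over 36% of the transcript), which the table lists at 133 to 573 FPKM, with a mean of 283 FPKM. Ndufs6b matches Ndufs6 at 96.6%, Ndufb4c matches Ndufb4 at 100% and Ndufs3 matches Gm12251 at 98.6%, so how reads were split between them is uncertain. Exons of 20 members overlap those of another gene, in 18 members a gene on the opposite strand, and whether the counting used strand is not stated by the labels. The overlap covers at least 20% of the exons in 3 members, with 65.6% in Ndufaf2 and 39.0% in Ndufb6. Among the 6 members called lower, only Ndufa9 has an overlap, of 3.2%.

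Promoters are shown for 4 of the members called lower in tumour hearts, and any link between their sequences and the Nduf levels was not tested. RefSeq promoter windows (GRCm38.p6, 250 bases before to 50 bases after the start) were matched for 41 of the 49 members by symbol. The windows shown lie at chr19:3912725-3913024 (- strand) for Ndufs8, chr2:140170396-140170695 (+ strand) for Ndufaf5, chr6:126849095-126849394 (- strand) for Ndufa9 and chr3:51408906-51409205 (- strand) for Ndufc1, and read 5′ to 3′, with capitals for a motif found by a search of both strands.
Ndufs8: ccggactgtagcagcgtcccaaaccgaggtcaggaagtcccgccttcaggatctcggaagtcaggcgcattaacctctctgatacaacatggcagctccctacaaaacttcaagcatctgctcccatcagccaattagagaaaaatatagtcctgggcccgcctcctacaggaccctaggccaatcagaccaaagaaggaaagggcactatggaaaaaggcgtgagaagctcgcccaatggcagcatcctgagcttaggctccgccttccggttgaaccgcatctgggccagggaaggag
Ndufaf5: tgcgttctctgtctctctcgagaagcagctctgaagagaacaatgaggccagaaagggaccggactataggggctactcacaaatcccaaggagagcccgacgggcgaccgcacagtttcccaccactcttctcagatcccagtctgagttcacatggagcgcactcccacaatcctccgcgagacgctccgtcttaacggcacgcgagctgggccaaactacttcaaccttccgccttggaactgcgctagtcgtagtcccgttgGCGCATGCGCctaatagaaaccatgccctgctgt
Ndufa9: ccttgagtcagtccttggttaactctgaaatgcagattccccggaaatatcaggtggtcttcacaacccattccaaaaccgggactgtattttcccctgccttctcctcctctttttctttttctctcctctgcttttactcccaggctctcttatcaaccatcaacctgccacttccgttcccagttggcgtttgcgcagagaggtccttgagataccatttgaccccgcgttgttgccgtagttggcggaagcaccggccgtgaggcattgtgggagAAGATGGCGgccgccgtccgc
Ndufc1: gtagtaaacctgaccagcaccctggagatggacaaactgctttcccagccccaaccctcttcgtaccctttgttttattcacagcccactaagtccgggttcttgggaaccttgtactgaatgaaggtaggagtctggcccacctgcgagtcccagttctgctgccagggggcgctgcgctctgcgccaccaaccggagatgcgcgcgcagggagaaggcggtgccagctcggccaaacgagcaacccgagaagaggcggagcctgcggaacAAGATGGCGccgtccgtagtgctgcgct

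The capitals in Ndufa9 and Ndufc1 mark AAGATGGCG, the binding motif of YY1, and those in Ndufaf5 mark the palindromic motif of NRF1; the Ndufs8 window held none of the 5 motifs searched. The YY1 motif was in 6 of 41 Nduf windows (14.6%: Ndufa9, Ndufaf8, Ndufc1, Ndufs4, Ndufs6 and Ndufs7) and in 1.64% of the windows of 27025 genes. All 6 matches began after the transcription start, from 10 bases (Ndufaf8) to 35 bases (Ndufs4) past it. The NRF1 motif was in 3 (7.32%: Ndufa11, Ndufaf4 and Ndufaf5) and in 1.07% of all. CCGGAAGT, bound by GABP and other ETS factors, was in 1 (2.44%: Ndufs3) and in 4.31% of all. TATAAA was in 4 (9.76%) and in 15.7% of all. The extended half-site of the oestrogen-related receptors, TCAAGGTCA, was in none of the 41 and in 0.466% of all. YY1, NRF1 and GABP are known regulators of nuclear respiratory genes. Of the 6 members called lower, 2 hold the YY1 motif, 1 the NRF1 motif and 3 (Ndufs8, Ndufaf1 and Ndufc2) none.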

How the data were processed

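RNA was extracted with TRIzol and made into libraries with a NEBNext kit, per the labels' protocols. Per the submitters' processing notes, fastp, FastQC, bcl2fastq and the mouse build mm10 were used, with no versions. For the aligner, the counting program, the annotation and the strandedness, the sources used here give no name or setting. Values are FPKM, as deposited by the authors in 1 table of 28640 genes; that they are per exon length and per depth was checked on the values. A total of 98.5% to 99.0% of low values lay within 0.1 of a whole number of reads once depth and GENCODE M21 exon length were taken out, and the depths came from those steps. No count test was run, since gene lengths come from an annotation that may not be the authors' own.

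The 13709 genes whose mean reached 0.5 FPKM in any group were fitted with limma 3.58.1 in R 4.3.3 (limma-trend) on log2(FPKM + 1), with all 17 libraries in 1 fit and group as the only factor. Fold differences are on that scale, which understates those of low genes. Tests were two-sided, with Benjamini-Hochberg adjustment over all genes tested and a threshold of 0.05, for 3 comparisons. The procedure was tested on simulated data, which held no length trend and no library set apart. That test does not cover the uneven libraries found here. The text names the 7 nuclear core subunits, up to 6 members past the threshold per comparison and fit, the members with the highest and the lowest difference, and Ndufa4, Ndufa4l2, Ndufs4, Ndufs6 and Ndufaf1. Other members named were chosen after their values were seen. For 1 member, values are not reported here, although it counts in the totals and medians; the figures by gene leave it out. Members and lists were chosen with earlier results of these data known. Alternatives were another scaling, quantile normalization, removal of each library's trend with exon length (lowess), a pseudocount of 0.1, other filters, a replicate block, only the libraries compared, and libraries left out. The main transcript of a gene is the shortest that GENCODE M21 marks as principal, or the shortest of all where none is marked. Copies of main transcripts were sought with BLAST+ 2.17.0. Other steps used Python 3.11.15 with numpy 2.4.6, pandas 2.3.3, scipy 1.17.1 and matplotlib 3.10.9. Counting error sets a lower bound to the precision, and intervals from reads would cover that error only.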

Additional observations from a re-analysis of the deposited data

Results flagged for a closer look

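In groups of 5 or 6 libraries, a single library stood far from the others of its group for several Nduf genes. Tumour_swim 1 did so in 8 cases. It was the high library for Ndufa4 (780 FPKM), Ndufs6 (404 FPKM), Ndufs8 (251 FPKM), Ndufc1 (217 FPKM), Ndufv3 (94.6 FPKM), Ndufs4 (84.9 FPKM) and Ndufs6b (21.3 FPKM), and the low library for Ndufs1 (31.7 FPKM). The other 2 cases were Ndufa9 in tumour_swim 6, which was high at 197 FPKM, and Ndufv2 in tumour 6, which was low at 160 FPKM. Chance gives such a library in about 1 of 20 groups, and here 10 of the 60 groups of the 20 named members, and 31 of the 147 groups of all members, held one. Members share their libraries, so these cases are not independent. Mitochondrial reads were 46.3% in tumour_swim 1, the highest of all libraries, and their part in these values was not tested.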

How the results depend on the processing

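In tumour against control, 6 members were lower with all libraries. The count was 0 without control 1, control 4 and tumour_swim 1, 11 with quantile normalization, 13 with the length trend removed, 3 with a pseudocount of 0.1 and 1 with no filter on low values, and between 0 and 24 with single libraries left out; the cause was not tested. It was 4 with median-of-ratios scaling, of which only Ndufaf1 was among the 6, and 6 with only the 2 groups compared, 6 with a mean of at least 1 FPKM, and 5 with a replicate block. Alternatives chosen after seeing the data, all without the 3 libraries, gave 5 with the length trend removed, 0 with the replicate block and 1 (Ndufs8) with median-of-ratios scaling. For the other scaling, quantile normalization, pseudocount, filters, replicate block and 2 groups alone, the share of all genes called lower is not given. The counts of members there cannot be set against it. In tumour_swim against control the count was 0, and 0 to 4 with single libraries left out. The median difference in tumour against control stayed negative in each fit of the 17 libraries with 1 left out (-0.86 to -0.47). Among the 14 it ran from -0.38 to 0.01, also an alternative chosen after seeing the data.

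The scaling shifts all genes: the median of all genes tested in tumour against control was 0.14 as deposited and 0.00 with median-of-ratios scaling, where that of the members was -0.67 and -0.87. Of 1740 values for named members under an alternative, 1612 stayed on their side of the threshold, 105 no longer passed it and 23 newly passed it. Most of the 1612 had not passed it as reported. All 105 belong to the 6 members called lower in tumour against control, the only calls as reported. Of the values past the threshold as reported or under the alternative, 0 changed sign; changes of sign below the threshold were not counted. Of 16 same-numbered pairs of libraries, 8 correlated above 0.1 (range -0.67 to 0.677). Differently numbered pairs ran from -0.763 (control 2 with tumour_swim 1) to 0.841 (control 4 with tumour_swim 1). These values do not show that replicate numbers pair the libraries, and they cannot exclude it. At 5 against 6 libraries, with control values this uneven, small differences cannot be resolved.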
